A study of Mus musculus with 16 samples.

Results

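A-kinase anchoring proteins are scaffolds that tether protein kinase A to a place in the cell, together with the phosphatases, phosphodiesterases and other kinases that limit its signal. Each binds the regulatory subunits of the kinase through an amphipathic helix and reaches its own address through other domains. In vascular smooth muscle, cyclic AMP acting through protein kinase A relaxes the cell, while the small GTPase RhoA, which some of these scaffolds also handle, drives contraction. The family examined here held 5 genes, Akap6, Akap9, Akap11, Akap12 and Akap13. It was chosen by its peaks in the same lists that are described below, so peak numbers are given as a description, with no test. Peaks lay inside 3 of the 5 genes, of 3968 genes with a peak in any list, and numbered 132 of 27959 peaks inside genes.

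THOC5, a subunit of the THO complex that couples transcription to export of messenger RNA, was immunoprecipitated together with its bound RNA. The cells were primary vascular smooth muscle cells of the mouse. The 8 peak lists are 2 of wild-type cells in growth medium (Ctrl), 2 of wild-type cells in osteogenic medium (Pi), 2 of cells overexpressing GFP in osteogenic medium (GFP OE, labelled wild type) and 2 of cells overexpressing THOC5 in osteogenic medium (THOC5 OE). The last 2 conditions are called the vector lists here; the sources used here give neither the vector nor its promoter, and do not say whether replicates are separate cultures. The other 8 of the 16 samples are inputs and were not analysed here, so THOC5 binding and the amount of a transcript cannot be told apart. Of genes that mark cell types, 3 of 8 smooth muscle genes (Acta2, Smtn and Mylk), 0 of 5 endothelial, 0 of 5 leukocyte, 1 of 4 fibroblast (Pdgfra) and 1 of 6 osteochondrogenic genes (Runx2) had a peak, and a peak list gives no level of any of them. Lists held 2572 to 4795 peaks with a single width per list, from 415 to 553 bp. Within each list peaks are ordered here by the percentile of the authors' score, since no source used here gives its scale.

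The scores move in steps. In each list 98.4% to 100% of the scores under 60 were whole multiples of 1 step, within 0.005 below 10 and 0.05 from 10, where 6.33% to 35.4% would be by chance. Steps were largest for Pi (1.58 and 1.14), smaller for Ctrl (0.726 and 0.758) and smallest for the 4 vector lists (0.282 to 0.350). No source says whether a step is 1 read after scaling. Were it so, Pi replicate 1 would be the shallowest list, Pi replicate 2 would be 1.38 times as deep, the Ctrl lists 2.18 and 2.08 times and the vector lists 4.51 times or more. The weakest peak of a list equalled 13.0 steps for either Pi replicate, 39.9 and 21.0 for Ctrl and at most 36.2 for the vector lists.

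Start sites come first because peaks lay on or beside them in Akap9, Akap11 and Akap13. Akap11, which binds protein kinase A, protein phosphatase 1 and glycogen synthase kinase 3, was the only member with a peak on a 300-base window around an annotated start (250 bases before it to 50 after it, RefSeq, build GRCm38.p6, which is mm10). That start, of transcript NM_001346784, lies inside the gene at chr14:78522653-78522952 on the minus strand. Capitals in the first sequence mark the 175 bases that lie under both the peak of Ctrl replicate 2 and that of THOC5 OE replicate 1. In the windows of Akap9 (chr5:3927936-3928235, plus strand) and Akap13 (chr7:75455284-75455583, plus strand), capitals mark GC boxes, GGGCGG on either strand, and peaks begin 74 and 61 bases past the end of the window.
Akap11, inner start: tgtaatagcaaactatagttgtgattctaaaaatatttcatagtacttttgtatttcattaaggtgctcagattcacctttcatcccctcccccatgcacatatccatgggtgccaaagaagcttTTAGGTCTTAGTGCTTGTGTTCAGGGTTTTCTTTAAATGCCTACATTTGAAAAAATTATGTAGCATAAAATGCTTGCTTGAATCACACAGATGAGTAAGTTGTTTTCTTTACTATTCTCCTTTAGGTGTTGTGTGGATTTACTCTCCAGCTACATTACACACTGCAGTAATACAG
Akap9: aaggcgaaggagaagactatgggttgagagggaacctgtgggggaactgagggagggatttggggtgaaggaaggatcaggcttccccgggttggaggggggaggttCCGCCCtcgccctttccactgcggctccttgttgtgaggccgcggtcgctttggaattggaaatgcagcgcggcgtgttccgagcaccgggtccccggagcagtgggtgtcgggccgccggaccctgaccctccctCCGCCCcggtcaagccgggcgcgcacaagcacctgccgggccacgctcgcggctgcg
Akap13: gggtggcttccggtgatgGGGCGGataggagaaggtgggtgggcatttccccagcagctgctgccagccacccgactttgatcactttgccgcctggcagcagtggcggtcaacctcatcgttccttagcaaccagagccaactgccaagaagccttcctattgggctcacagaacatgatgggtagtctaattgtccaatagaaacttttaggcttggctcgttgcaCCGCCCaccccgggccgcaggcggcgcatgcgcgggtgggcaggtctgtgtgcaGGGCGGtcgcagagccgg

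The windows differ in base composition. The inner start of Akap11 had 35.7% G and C with 0 CpG pairs and 0 GC boxes, against a median of 52.7% over 32851 RefSeq windows. Akap9 had 67.7% with 27 CpG pairs and 2 GC boxes, and Akap13 61.3% with 17 CpG pairs and 3 GC boxes, and 35.7% of all windows hold a GC box. The outer start of Akap11 (chr14:78536811-78537110, minus strand) had 69.0% with 38 CpG pairs, and the nearest peak lay 57 bases past it, in Ctrl replicate 2. The cyclic AMP response element TGACGTCA, searched on both strands, was in none of the windows of Akap6, Akap9, Akap11 and Akap13, and was in 1.79% of all windows.

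Akap9 encodes a large scaffold of the Golgi and centrosome, also known as AKAP450, from which microtubules are nucleated. It spans chr5:3927736-4080204 (152469 bp) and had a peak in all 8 lists, as did 10.1% of the genes with any peak, 1.82% of all RefSeq protein-coding genes and 9.03% of those spanning at least 90000 bp. Ctrl held 7 and 14 peaks, Pi 5 and 6, GFP OE 13 and 9, and THOC5 OE 12 and 10 (replicates 1 and 2, in this order throughout). Both Pi lists were thus lower than each of the other 6. The mean was 9.5 peaks per list (SD 3.34, n = 8), and the total of 76 ranked 40 among the 3968 genes, whose median total was 2.

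Akap13 encodes AKAP-Lbc, which anchors protein kinase A and is itself an exchange factor that activates RhoA. It spans chr7:75455526-75754609 (299084 bp) and also had a peak in all 8 lists. Ctrl held 7 and 10 peaks, Pi 3 and 4, GFP OE 12 and 3, and THOC5 OE 7 and 7. Pi lay below Ctrl, but GFP OE replicate 2 lay as low as Pi replicate 1. The mean was 6.63 peaks per list (SD 3.25, n = 8) and the total of 53 ranked 72. Per length, Akap9 carried 6.23 peaks per list and 100 kb and Akap13 2.22, against a median of 4.43 over the 82 genes with at least 50 peaks, a group set with the totals of both genes known and to which they belong.

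Akap11 (chr14:78492246-78536980) had 3 peaks in 2 lists. Ctrl replicate 2 held 2 of them, at percentile 32.0 on the inner start and at percentile 5.31 in intron 1 of 11, and THOC5 OE replicate 1 held 1, at percentile 44.2 in intron 2 of 11. The 2 peaks at the inner start have their centres 33 bp apart, although the annotation names one a promoter and the other an intron. The remaining 6 lists had 0 peaks there.

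Akap6 encodes mAKAP, which holds protein kinase A at the nuclear envelope of muscle cells. Akap12 encodes gravin, also called SSeCKS, which binds protein kinases A and C and the beta-2 adrenergic receptor. Neither had a peak in any of the 8 lists, although Akap6 (chr12:52698588-53155568) spans 456981 bp, the longest of the 5, and Akap12 (chr10:4266329-4359471) 93143 bp. Among RefSeq protein-coding genes 17.8% had a peak in at least 1 list, and 41.5% of those spanning at least 90000 bp. A missing peak does not show that the transcript is unbound.

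**Figure D1:**
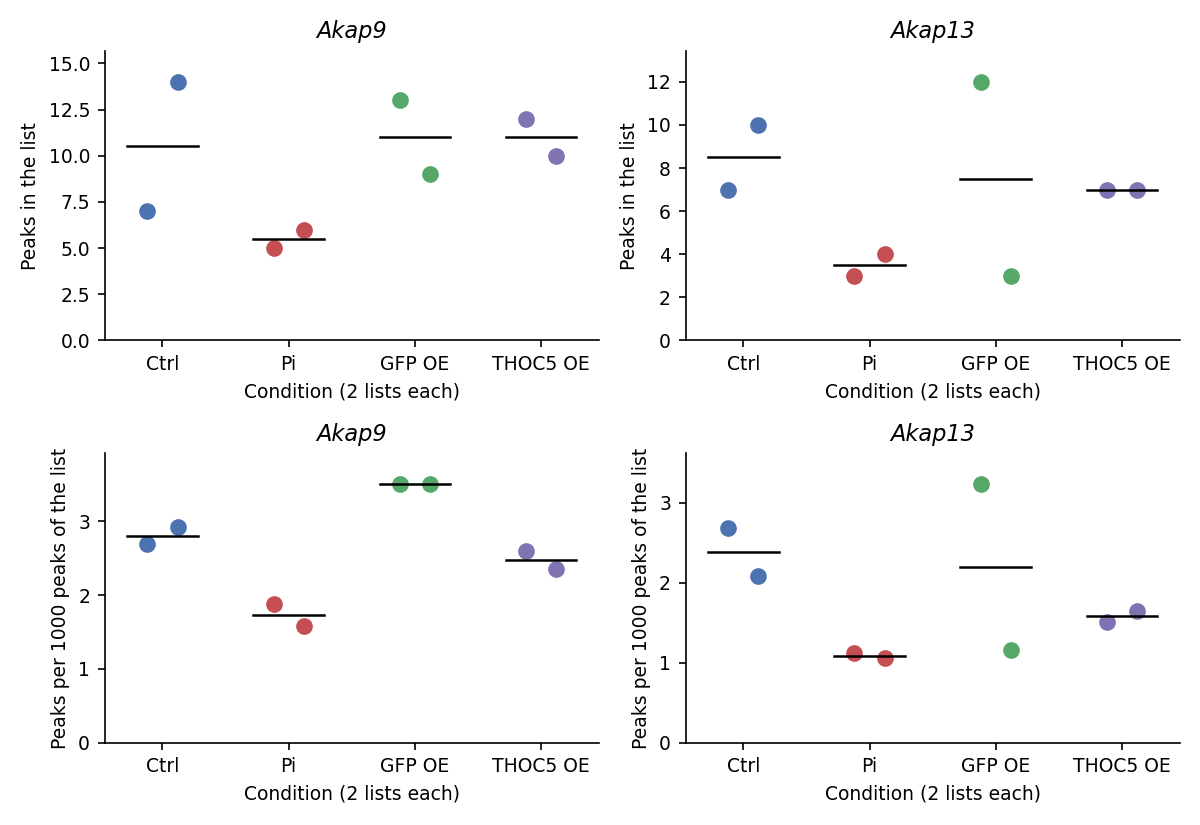
Peaks inside Akap9 (left) and Akap13 (right) in each list, as numbers (top) and per 1000 peaks of the list (bottom), by condition. Each point is 1 list and each black line the mean of the 2 lists. Pi lies lowest for Akap9 in both scales (5 and 6 peaks), while GFP OE replicates of Akap13 lie far apart (12 and 3 peaks).

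Osteogenic medium was set against growth medium to ask which transcripts change their association with THOC5. Akap9 had a mean of 5.5 peaks in Pi (SD 0.707, n = 2) and 10.5 in Ctrl (SD 4.95, n = 2), a ratio of 0.524. Akap13 had 3.5 (SD 0.707) and 8.5 (SD 2.12), a ratio of 0.412. Neither gene's Pi lists overlapped its Ctrl lists. Such a gap, with Pi below, was seen in 5.7% of the 3968 genes and in 17.1% of the 82 genes with at least 50 peaks. Of these 82, 8.54% had a lower ratio of Pi to Ctrl than Akap9 and 3.66% a lower one than Akap13, and the median ratio was 0.816. Akap13, with 53 peaks in total, lay near the floor of this group. Both genes were chosen with their peaks known, so these places among the 82 are a description only. Akap11 had 0 peaks in Pi and 0 and 2 in Ctrl, and its conditions overlapped.

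Set against the length of the lists, the order was kept. Akap9 made up 1.88 and 1.58 of every 1000 peaks in Pi and 2.69 and 2.92 in Ctrl, and Akap13 1.13 and 1.05 in Pi and 2.69 and 2.09 in Ctrl. On this scale 8.19% of the 3968 genes and 26.8% of the 82 had Pi below Ctrl without overlap. For the 5 genes together, Pi lists held 8 and 10 peaks and Ctrl lists 14 and 26. The difference of means of -11 moved to -5 without Ctrl replicate 2 and to -17 without Ctrl replicate 1. The gap also went with the score steps given above, which are larger in both Pi lists than in both Ctrl lists, and their part in it was not tested.

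Both gaps depend on which peaks are counted. With lists cut to the best 2572 peaks, Pi stayed below Ctrl for Akap9 (5 and 6 against 7 and 11) and Akap13 (3 and 4 against 7 and 6). With only peaks at or above the median score of their list, Akap9 overlapped (3 and 5 against 4 and 11) and Akap13 did not (0 and 3 against 4 and 6). Within exons Pi held 2 and 2 peaks of Akap9 against 4 and 8 in Ctrl, and 2 and 2 of Akap13 against 3 and 6. Within introns Akap9 overlapped, with 3 and 4 in Pi and 3 and 6 in Ctrl, while Akap13 had 1 and 2 against 4 and 4. With peaks given to the authors' nearest gene, Pi overlapped Ctrl for Akap9 (3 and 4 against 4 and 9) and for Akap13 (3 and 2 against 3 and 6).

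Pi was next set against the 4 vector lists, which share its medium but not its score steps. Steps were 1.58 and 1.14 in Pi and 0.282 to 0.350 in the vector lists, and their part in any gap was not tested. Akap9 had 5.5 peaks in Pi (SD 0.707, n = 2) and 11 in the vector lists (SD 1.83, n = 4), with no overlap, a ratio of 0.5. This was seen in 4.16% of the 3968 genes and in 28% of the 82, and 20.7% of the 82 had a lower ratio. Among exon peaks alone the groups overlapped, since GFP OE replicate 2 held 2 of them, as did each Pi list. Akap13 had 3.5 (SD 0.707, n = 2) and 7.25 (SD 3.69, n = 4), a ratio of 0.483, and the groups overlapped at GFP OE replicate 2. Per 1000 peaks of the list, Akap13 stood at 1.13 and 1.05 in Pi and 1.17 in GFP OE replicate 2, so that the groups parted by a narrow margin, as in 5.34% of the 3968 genes and 31.7% of the 82. Akap9 lay in Pi below each of the 6 other lists, which 0.907% of the 3968 genes and 6.1% of the 82 did. Comparisons with Ctrl and with the vector lists share the 2 Pi lists, so they are not separate evidence.

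THOC5 OE was set against GFP OE to ask what added THOC5 brings. Akap9 had a mean of 11 peaks in both conditions (SD 1.41 in THOC5 OE and 2.83 in GFP OE, n = 2 each). Akap13 had 7 (SD 0) in THOC5 OE and 7.5 (SD 6.36) in GFP OE. Both genes overlapped between the conditions. Per 1000 peaks of the list, Akap9 stood at 2.60 and 2.36 under THOC5 OE and at 3.50 in either GFP OE list and no longer overlapped, as did 8.06% of the 3968 genes and 40.2% of the 82 in this direction. The THOC5 OE lists are the longer ones, at 4618 and 4240 peaks against 3711 and 2572.

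Joined across lists wherever they share at least 1 base, the 132 peaks form 39 sites, 20 in Akap9, 17 in Akap13 and 2 in Akap11. In Akap9 10 of 20 sites (50%) were in at least 4 lists, in Akap13 6 of 17 (35.3%) and in Akap11 0 of 2, against 20.7% of all 12362 sites of the 8 lists. Sites of a single list were 4 of 20 and 4 of 17, against 49.1% of all sites. The 2 sites found in all 8 lists were both in Akap9, and 2.62% of all sites were.

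**Figure D2:**
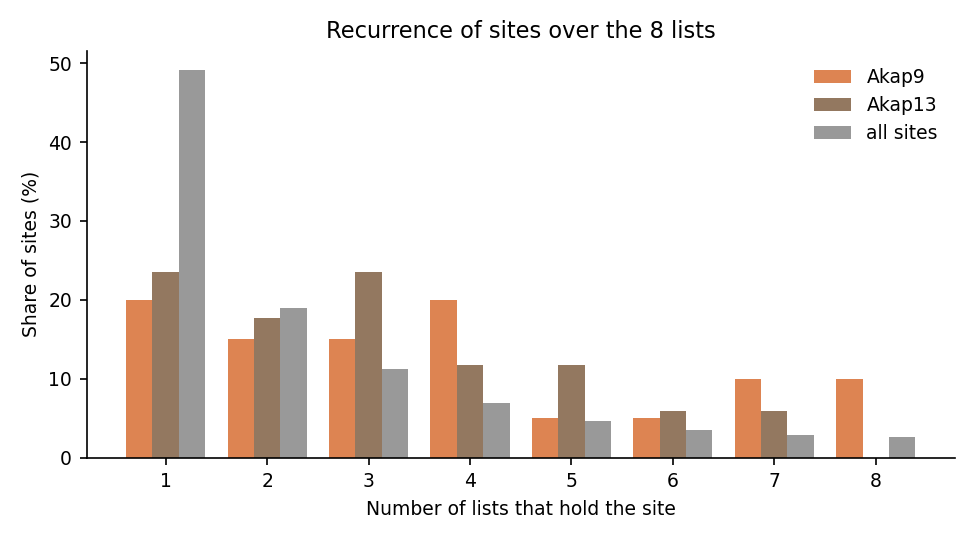
Share of sites (vertical axis, percent) by the number of lists that hold them (horizontal axis), for the 20 sites of Akap9, the 17 of Akap13 and all 12362 sites. All sites fall off from 49.1% in 1 list to 2.62% in 8, while those of Akap9 reach 20% at both 1 and 4 lists.

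One site of Akap9 in all lists lies in exon 30 of 48, at chr5:4046112-4046713. The Ctrl peaks stood at percentiles 86.4 and 91.1, those of Pi at 90.7 and 89.2, those of GFP OE at 89.9 and 88.0 and those of THOC5 OE at 92.2 and 91.4. The other lies in intron 12 of 47, at chr5:3975670-3976228, where peak centres spread over only 27 bp. There the Ctrl peaks stood at 44.6 and 65.4, those of Pi at 59.7 and 61.8, those of GFP OE at 71.4 and 61.6 and those of THOC5 OE at 74.1 and 72.04. At both sites Pi overlapped Ctrl, whose own replicates lay far apart in intron 12.

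Exon 7 held the strongest peaks of both genes. In Akap9, exon 7 of 48 had 9 peaks over all 8 lists at percentiles 92.1 to 95.9, with centres up to 1409 bp apart. Its main site, chr5:3961471-3962195, was in 7 lists, with Ctrl at 92.1 and 95.2, Pi replicate 1 at 93.3, both GFP OE lists at 94.5 and both THOC5 OE lists at 95.9. Pi replicate 2 had its peak in the same exon at chr5:3960432-3960871 (percentile 92.4), where Ctrl replicate 2 had a further peak (93.7). So all lists had a peak in this exon, but not all at a single place in it.

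Akap13 showed the same kind of spread in exon 7 of 37. It had 8 peaks in 6 lists at percentiles 92.7 to 96.6, with centres up to 1765 bp apart. The first place, chr7:75608685-75609290, was in both Ctrl lists (92.7 and 95.2), Pi replicate 2 (94.7) and THOC5 OE replicate 1 (96.0). The next, chr7:75609736-75610380, was in Ctrl replicate 2 (95.4), GFP OE replicate 1 (94.8) and THOC5 OE replicate 2 (96.6), and the last, chr7:75610448-75610891, in Ctrl replicate 1 alone (93.1). The 2 replicates of THOC5 OE thus had their peaks at different places in the exon. Coverage was not examined, so a missing peak at a place does not show missing signal there. Pi replicate 1 and GFP OE replicate 2 had no peak in this exon.

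**Figure D3:**
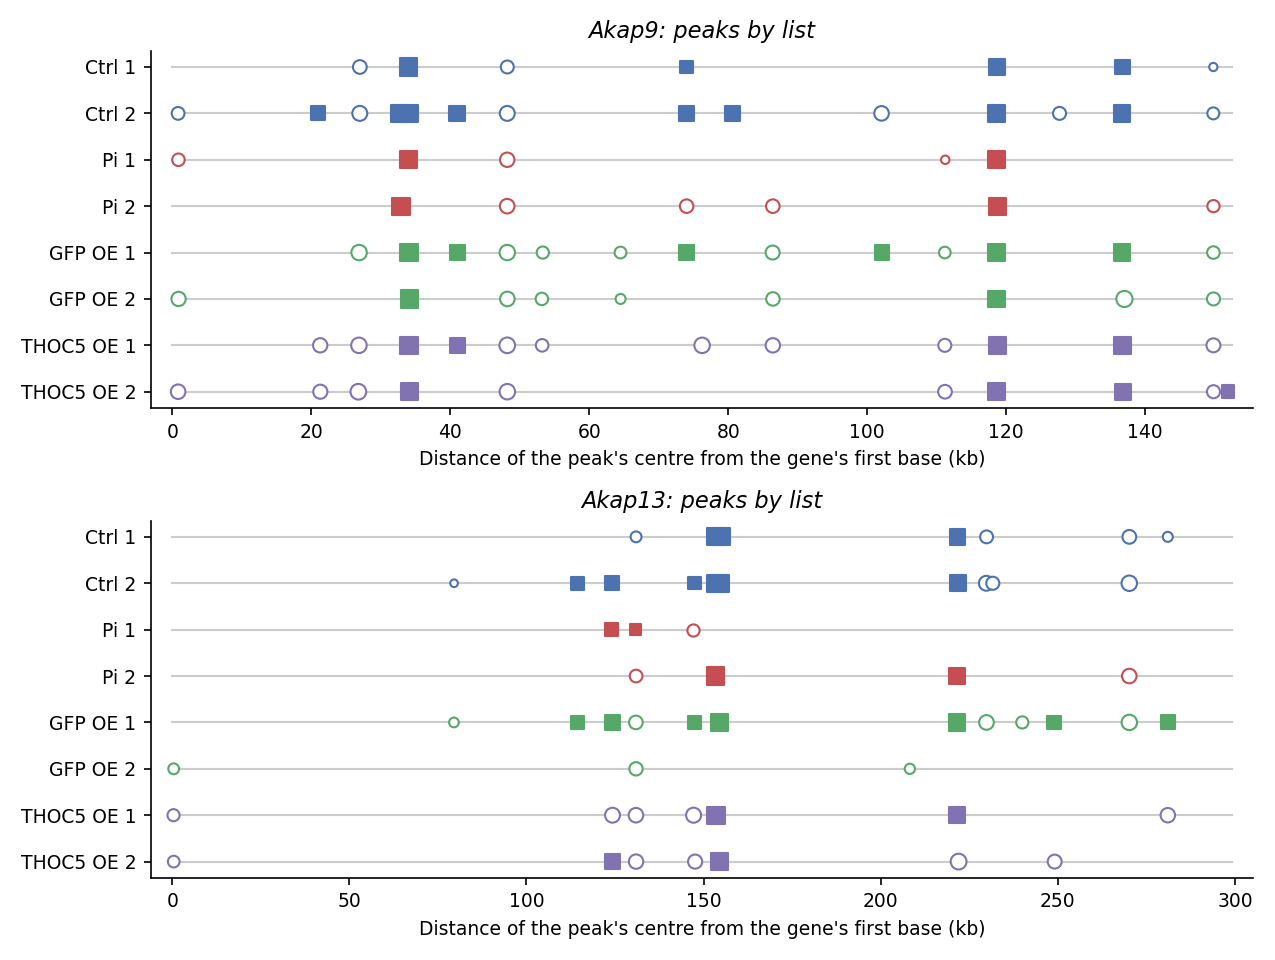
Peaks along Akap9 (top) and Akap13 (bottom), 1 line per list, by the distance in kb of the peak's centre from the gene's first base. Filled squares are exon peaks and open circles intron peaks, and larger symbols have a higher percentile of the score. The columns at about 34.1 and 119 kb of Akap9 are exons 7 and 30. In Akap9 the 2 Pi lines hold the fewest symbols, 5 and 6, while in Akap13 Pi replicate 1 and GFP OE replicate 2 hold 3 each.

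Other places that recurred in Akap9 were mostly intronic. A site in intron 46 of 47 (chr5:4077323-4077861) was in 7 lists, all but Pi replicate 1, at percentiles of 6.15 to 54.5. Exon 39 of 48 and the start of intron 39 (chr5:4064236-4065038) carried a site in 6 lists at 64.7 to 83.5, and intron 3 of 47 (chr5:3954248-3954955) one in 5 lists at 52.2 to 74.3. Peak centres lay up to 330 bp apart at exon 39 and up to 216.5 bp apart in intron 3. Sites in 4 lists lay in intron 1 (chr5:3928309-3928905, 40.3 to 61.2, which the annotation places on a CTGGGG simple repeat), at exon 16 (chr5:4001498-4001981, 43.4 to 68.3), in intron 21 (chr5:4013923-4014452, 50.02 to 59.5) and in intron 26 (chr5:4038680-4039259, 7.35 to 51.7). The annotation, which names 1 exon or intron per peak, thus placed peaks in 9 of 48 exons and 14 of 47 introns.

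In Akap13 a site at exon 5 and intron 5 (chr7:75585998-75586737) was in 7 lists, all but Ctrl replicate 2, at percentiles of 25.3 to 61.7. A site at exon 11 and intron 11 (chr7:75676892-75677792) was in 6 lists at 71.0 to 82.1 and absent from Pi replicate 1 and GFP OE replicate 2. Sites at exon 4 (chr7:75579303-75580065, 49.3 to 66.7) and around exon 6 (chr7:75602382-75603408, 36.8 to 66.5) were in 5 lists each, and one in intron 21 (chr7:75725491-75725946, 52.6 to 71.6) was in both Ctrl lists, Pi replicate 2 and GFP OE replicate 1. Peak centres lay up to 480.5 bp apart around exon 6 and up to 394.5 bp apart at exon 11 and intron 11. By the same annotation, peaks were placed in 8 of 37 exons and 12 of 36 introns.

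Some sites were set apart between conditions. Of the 39 sites, 3 (7.69%) were in both Ctrl lists and no Pi list, namely those in intron 3 and at exon 39 of Akap9 and one in intron 13 of Akap13 (chr7:75685150-75685642), where 3.23% of all sites had this pattern. Their lowest Ctrl scores were 83.4, 111.1 and 72.6, while the lowest scores of any peak in the Pi lists were 20.5 and 14.9. Scores of different lists are set side by side here without a known common scale. Whether these sites were too weak to be called in Pi was not tested. The site at exon 39 was in addition in all 4 vector lists, a pattern of 1.86% of all sites. No site was in both Pi lists and no Ctrl list, or in both Pi lists and no vector list, against 1.79% and 1.63% of all sites. Sites of a single list can show none of the patterns given here or in the next paragraph. They were 23.1% of the 39 sites and 49.1% of all sites, so these shares do not have a like base.

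Between THOC5 OE and GFP OE, 1 site, at exon 2 and intron 2 of Akap9 (chr5:3948523-3949312, percentiles 58.7 and 56.9 in THOC5 OE), was in both THOC5 OE lists and no GFP OE list, as were 5.25% of all sites, and Ctrl replicate 2 held it too. Its peak centres lay up to 312.5 bp apart. In the other direction 1 site, in intron 15 of Akap9 (chr5:3991998-3992527; percentiles 33.3 and 18.6), was in both GFP OE lists and nowhere else, and 0.89% of all sites were in both GFP OE lists and no THOC5 OE list. A site in intron 13 of Akap9 (chr5:3980668-3981275) was in both GFP OE lists and THOC5 OE replicate 1, and in neither Pi nor Ctrl. Both THOC5 OE lists, GFP OE replicate 2 and no other list held a site in intron 1 of Akap13 (chr7:75455644-75456204; percentiles 24.9 to 36.1), on a CpG-rich stretch of the annotation.

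Introns held 44 of 76 peaks of Akap9 (57.9%) and 29 of 53 of Akap13 (54.7%), and exons the remaining 32 and 24. By list the intron share of peaks in the 5 genes was 50% and 42.3% for Ctrl, 50% and 60% for Pi, 48% and 83.3% for GFP OE, and 70% and 64.7% for THOC5 OE. Over all peaks of a list, which include those outside genes, it ran from 51.6% in Ctrl replicate 1 to 61.5% in GFP OE replicate 2. The exon share in the 5 genes was 50% and 53.8% for Ctrl, 50% and 40% for Pi, 52% and 16.7% for GFP OE, and 30% and 35.3% for THOC5 OE. Over all peaks, again with those outside genes, it was 35.9% and 33.4%, 29.9% and 31.1%, 31.2% and 26.2%, and 28.4% and 26.7%. The 5 genes thus had the higher exon share in every list except GFP OE replicate 2. The intron share in the 5 genes was lowest in Ctrl replicate 2 and highest in GFP OE replicate 2, which had 10 intron and 2 exon peaks. Overlapping peaks of different lists can carry different labels. At the exon 39 site of Akap9, the peak of GFP OE replicate 2 was named intron 39 and those of the other lists there exon 39. Shares per list, and the comparisons within exons or introns above, depend on such labels.

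Exon peaks ranked higher than intron peaks. Their median percentile was 87.2 against 51.9 in Akap9 and 74.3 against 51.3 in Akap13. These medians count a place again for each list that holds it. Exons 7 and 30 gave 9 and 8 of the 32 exon peaks of Akap9, and exon 7 gave 8 of the 24 of Akap13. Medians of the other single exons ran from 42.7 to 83.2 in Akap9 and from 32.7 to 80.0 in Akap13. List by list, the median for the 5 genes was 68.3 to 91.2 in exons and 38.6 to 59.8 in introns, with the exon median higher in each of the 8 lists. Over all peaks of a list the medians were 61.2 to 66.7 in exons and 42.8 to 45.9 in introns, so this order is that of the lists in general.

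**Figure D4:**
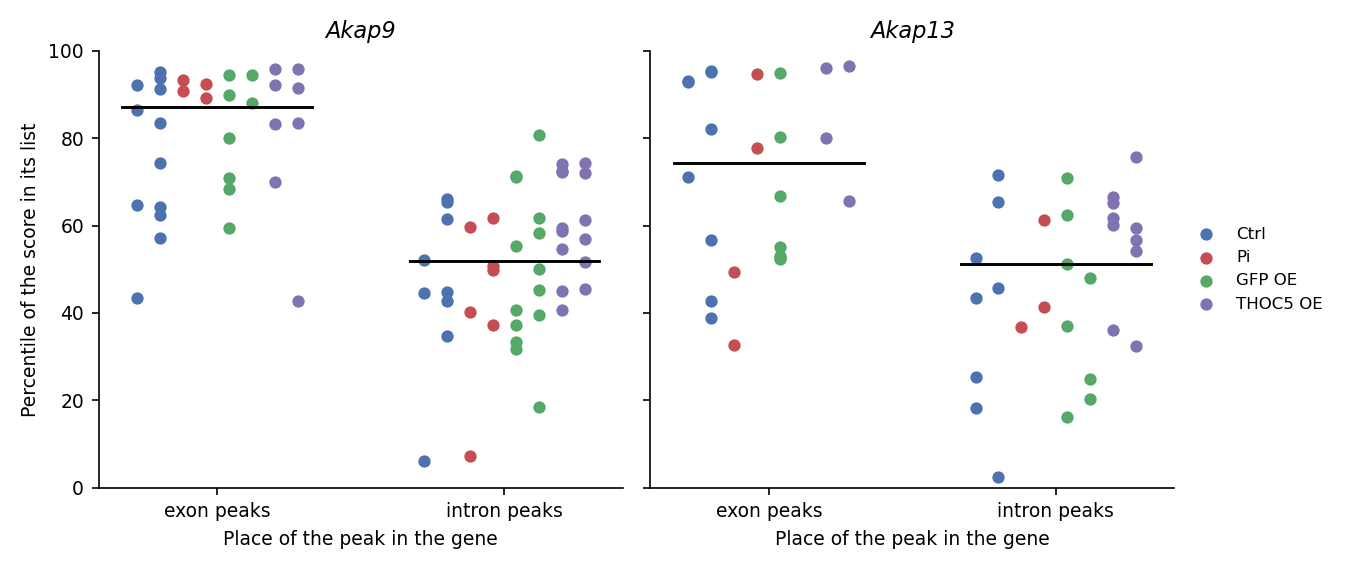
Percentile of the score within its list (vertical axis) for exon and intron peaks of Akap9 (left) and Akap13 (right). Each point is a peak, coloured by condition, and each black line is the median of its class. A place held by several lists gives a point for each of them. Exon peaks reach 95.9 and 96.6, with medians of 87.2 and 74.3, and intron peaks have medians of 51.9 and 51.3.

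Both genes, like the lists in general, share peaks with a neighbour when the nearest start site is used instead. The nearest gene by start site, which the deposited lists also give, was Cyp51 for 29 of 76 peaks of Akap9 (38.2%) and Klhl25 for 21 of 53 of Akap13 (39.6%), although Cyp51 lies at chr5:4080674-4104697 and Klhl25 at chr7:75848338-75874133, outside both. Over all peaks the nearest gene differed from the gene of the transcript for 35.2% to 40.4% of a list, so neither share departs from that of the lists. At the last exon of Akap9 the annotation itself split 1 place. THOC5 OE replicate 2 had a peak at chr5:4079395-4079933 named for exon 48 of Akap9 (percentile 42.7). Overlapping peaks of THOC5 OE replicate 1 (chr5:4079506-4079979, 41.3) and GFP OE replicate 1 (chr5:4079636-4080056, 43.5) were named for the transcript end of Cyp51 and are not counted among the 132. No list of Ctrl or Pi had a peak there.

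Other anchoring proteins were counted from a list of 36 names, of which 32 are RefSeq symbols. A peak was in 12 of the 32 (37.5%), and 9 had one in at least 4 lists. Of all RefSeq protein-coding genes 17.8% had a peak and 6.46% had one in at least 4 lists, and of those spanning at least 90000 bp 41.5% and 24.4%. Nbea and Lrba, large paralogous scaffolds of membrane traffic that bind the kinase, had a peak in all 8, with 144 and 129 peaks in total. In Nbea Ctrl held 6 and 19 peaks, Pi 6 and 15, GFP OE 26 and 16 and THOC5 OE 31 and 25, and in Lrba 9 and 18, 10 and 12, 22 and 14, and 21 and 23. For both, Pi lay below the 4 vector lists but overlapped Ctrl. Pi lay below the vector lists in 4.16% of the 3968 genes and in 28% of the 82 genes with at least 50 peaks, to which both belong.

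The pericentriolar scaffold gene Pcnt (51 peaks) and Arfgef1 (26 peaks), an exchange factor for ARF GTPases, were also in all 8 lists. Arfgef1 was the 1 gene of this list with Pi (1 and 2 peaks) below Ctrl (5 and 4), and none had Pi above Ctrl, against 5.7% and 3.5% of genes with a peak. Arfgef2 was in 7 lists, Pde4dip, which encodes myomegalin, in 6, and Pakap, Akap17b and Ezr in 4.

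Of 35 genes of cyclic AMP signalling, 8 (22.9%) had a peak, a share near the 17.8% of all protein-coding genes. The 6 genes for subunits of protein kinase A had 0, which at that share is too few genes to read anything from. The adenylyl cyclase gene Adcy1 (18 peaks) and Crebbp, a coactivator of the factor CREB (15 peaks), were in all 8 lists, and the cyclase gene Adcy9 in 5, with both Pi lists among those without it. In this list 1 gene, Adcy9, had Pi (0 and 0 peaks) below Ctrl (1 and 1), as did 5.7% of genes with a peak. Another, Adcy3, had 1 peak in each Pi list and none in any other list, so Pi lay above Ctrl and above the vector lists. Among genes with a peak, Pi lay above Ctrl in 3.5% and above the vector lists in 3.6%. Each of these calls rests on 1 peak per list. Adcy3 falls outside the rule for named genes and was named after its values were seen.

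Of 18 genes of cyclic nucleotide phosphodiesterases, which degrade the signal, 4 (22.2%) had a peak, again near the 17.8% of all protein-coding genes. In at least 4 lists 0 had one, against 6.46% of all protein-coding genes. In 1 of the 4 Pi lay above the vector lists, as in 3.6% of genes with a peak. Of 20 genes of partners of these scaffolds, 10 (50%) had one, against 17.8% of all protein-coding genes and 41.5% of the long ones. They include Pcnt, Ppp3cb, a catalytic subunit of calcineurin (7 lists), Prkd1, the gene of protein kinase D1 (7 lists), the protein kinase C gene Prkce (5 lists) and Cdk5rap2, which organises the centrosome (5 lists). For Cdk5rap2, THOC5 OE stood at 8 and 7 peaks, GFP OE at 3 and 0, Pi at 0 and 1 and Ctrl at 0 and 2. THOC5 OE lay above GFP OE without overlap in 9.25% of the genes with a peak. In no gene of these partners did Pi lie below or above Ctrl without overlap, against 5.7% and 3.5% of genes with a peak.

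The genes whose peaks per list came nearest to those of a member were found by the sum, over the 8 lists, of the absolute difference in peaks. Nearest to Akap9 were Ascc3 (sum 13; peaks, in the same order of conditions, 8 and 13, 7 and 6, 12 and 12, 16 and 11) and Chd6 (sum 15; 8 and 13, 6 and 8, 10 and 5, 14 and 9). Nearest to Akap13 were Cep350 (sum 8; 7 and 11, 5 and 4, 11 and 5, 8 and 6) and Atr (sum 11; 2 and 10, 0 and 4, 11 and 3, 5 and 7). For Akap11 3 genes had the same numbers in every list. The measure rests on 8 lists that differ in length, and it is given as a description.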

How the data were processed

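Peaks of 8 THOC5 RNA immunoprecipitates were analysed. HOMER's annotatePeaks.pl placed each peak on mm10, per the file headers. FastQC, Bowtie2, MACS2 and SAMtools are named without roles, per the submitters' processing notes. Each peak carries a score that the authors deposited. The sources used here do not give its scale, the caller or whether inputs were used. Lists were joined to samples by the condition's abbreviation and the replicate number that the headers hold.

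A peak was given to the gene of its annotated transcript if its centre lay inside the RefSeq gene (28582 of 28614 transcripts matched). Percentiles are ranks within a list. Peaks of different lists sharing at least 1 base formed a site. Counting code was checked on simulated lists. Planted gaps there were larger than those described here, and planted sites lay farther apart than many. The check therefore does not show that gaps or sites like those described here would be recovered. Python 3.11.15 and pandas 2.3.3 were used.

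Members and lists were chosen with earlier results of these data known. With 2 lists against 2, an exact two-sided permutation test could not go below 0.333, and none was run. Sites were named if found in at least 4 lists, strongest in a gene, or in both lists of 1 condition and none of another. Listed genes were named from 4 lists on, except 1 that is not reported here, with at most 2 likest genes per member. Genes at a difference of 0 were counted only. Alternatives were a score threshold, lists of equal length, the nearest gene, exons or introns alone, scaling to list length, 50% overlap, no promoter class and leaving out each list.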

Additional observations from a re-analysis of the deposited data

How the results depend on the processing

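In total 61 of 69 alternative values stayed within the spread between replicates or within 1.5 times the reported count, and no difference changed direction among Pi against Ctrl and Pi against the vector lists. For the differences, that spread was an SD of 6.38 peaks per list, which is wide beside -11 and -9.5. Values of -17 and -5 for Pi minus Ctrl both count as staying within it, so the 61 are a loose measure. The mean of 16.5 peaks per list on the 5 genes became 10.3 with the authors' nearest gene, 7 with exons and UTRs only and 9.38 with introns only, by construction. The difference of Pi minus Ctrl, -11 as reported, was -4 with introns only, and -17 to -5 over leaving out each list. The difference of Pi minus the vector lists, -9.5 as reported, was -2.75 with exons and UTRs only, and -11.7 to -7.33 over leaving out each list. THOC5 OE minus GFP OE, 0 as reported, was -5.55 with peaks scaled to the mean list length. The same difference was -6.5 without GFP OE replicate 2 and 6.5 without GFP OE replicate 1. The 16 sites in at least 4 lists became 10 with only peaks at or above the median score of their list, and 12 to 14 over leaving out each list. Leaving out the promoter class was chosen after seeing the data and moved none of these beyond that spread. No paired analysis was possible because none of the results comes from a test, and the labels do not say what samples of the same number share. The depth of the lists is unknown; score steps, largest in the Pi lists, are given in its place, and what a step stands for is not known.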
